A study of Mus musculus with 2 samples.

Results

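Myb occupancy was examined at the genes of the TNF superfamily in WT Lin– bone marrow cells. These were the 36 protein-coding genes in GENCODE vM21 (mm10) whose symbols start with Tnfsf or Tnfrsf and a number, together with Tnf, Lta, Ltb, Ltbr and Fas, out of 21951 protein-coding genes. A Myb peak was counted for a gene when its summit lay inside the gene or within 10 kb of either end, which gave 27 of the 25793 peaks in the list. There were 14 genes for ligands and 22 for receptors. The ChIP-Seq had 1 Myb library and 1 control library made with nonspecific rabbit IgG, both from Lin– cells of WT genotype, that is, bone marrow depleted of cells with mature lineage markers to a purity above 80% and enriched for HSPCs. The labels give no more of the mice than WT. In the study's methods the animals are of C57BL/6 background and of both sexes, and those called WT carry floxed Ep300 without Cre and received 3 injections of poly(I:C), which mimics viral RNA and evokes interferon, at 6 to 8 weeks of age. The sources used here do not state that this held for the mice of the Myb ChIP-Seq, and they do not give their age at harvest, their number or whether they were pooled. The study used Myb occupancy in these cells to find which genes Myb may control in HSPCs. Expression was not part of this experiment, so the label of the cells could not be checked against their marker genes.

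TNF superfamily ligands are mostly trimers, held in the membrane or released from it, and they cluster receptors on the target cell. Receptors with a death domain can pass the signal to caspases. TRAF adaptors, which activate NF-κB and MAP kinases, are recruited directly by signaling receptors without a death domain. Decoy receptors bind ligand without signaling. In bone marrow the family is known for the control of stem cell survival under inflammation, of B cell and plasma cell survival, of T cell costimulation and of bone resorption. Myb is a DNA-binding transcription factor that hematopoietic progenitors require.

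Few of the peaks at these genes had a Myb motif at the summit, as was the case over the whole list. The motif was taken as CAACGG or CAACTG, or either of these with T as the leading base, on both strands, and none of the 8 strongest peaks by fold enrichment held it within 50 bp of the summit, where 16.7% of all peaks held it. In 5 of these 8 it lay elsewhere in the peak, and 58.6% of all peaks held it anywhere. The 300 bases around 3 of those summits are shown to place the motif relative to the summit, with the motif in capitals. They were chosen after the values were seen, read from GRCm38 on the plus strand.
Tnfrsf14 upstream peak, chr4:154929290-154929589 (+): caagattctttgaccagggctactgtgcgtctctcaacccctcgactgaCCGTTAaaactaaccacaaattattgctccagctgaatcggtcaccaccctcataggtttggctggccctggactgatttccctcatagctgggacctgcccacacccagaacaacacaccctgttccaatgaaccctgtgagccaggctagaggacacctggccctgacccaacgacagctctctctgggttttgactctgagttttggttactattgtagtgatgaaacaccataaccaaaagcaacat
Tnfrsf8 intron peak, chr4:145276495-145276794 (+): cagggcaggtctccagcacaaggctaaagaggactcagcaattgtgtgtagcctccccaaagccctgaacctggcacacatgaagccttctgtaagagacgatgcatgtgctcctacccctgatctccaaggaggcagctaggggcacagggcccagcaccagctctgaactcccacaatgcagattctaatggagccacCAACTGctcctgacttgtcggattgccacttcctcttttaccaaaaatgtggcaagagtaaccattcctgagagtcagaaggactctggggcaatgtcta
Fas upstream peak, chr19:34288040-34288339 (+): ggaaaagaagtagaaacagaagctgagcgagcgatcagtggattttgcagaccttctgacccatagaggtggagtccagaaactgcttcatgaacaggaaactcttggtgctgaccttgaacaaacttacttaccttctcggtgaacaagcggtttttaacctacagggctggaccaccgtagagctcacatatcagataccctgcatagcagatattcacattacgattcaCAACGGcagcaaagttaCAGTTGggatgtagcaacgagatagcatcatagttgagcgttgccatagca
In the Tnfrsf14 window the motif began 100 bases before the summit. In the Tnfrsf8 window it began 51 bases after the summit, just outside the window searched. In the Fas window motifs began 83 and 100 bases after the summit.

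The motif lay within 50 bp of the summit in 3 of the 27 peaks, or 11.1% (95% interval 2.35 to 29.2), and the interval includes the 16.7% of all peaks. These 3 were below the median height of the list. They lay upstream of Ltb (4.37-fold), Tnfsf14 (3.21-fold) and Tnfsf4 (2.98-fold). The 101 bases around each summit are shown, again from the plus strand with the motif in capitals.
Ltb upstream peak, chr17:35189318-35189418 (+): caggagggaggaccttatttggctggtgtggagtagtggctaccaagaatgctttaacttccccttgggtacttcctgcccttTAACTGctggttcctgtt
Tnfsf14 upstream peak, chr17:57198321-57198421 (+): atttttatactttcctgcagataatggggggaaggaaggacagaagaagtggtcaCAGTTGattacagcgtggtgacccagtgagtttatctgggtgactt
Tnfsf4 upstream peak, chr1:161394833-161394933 (+): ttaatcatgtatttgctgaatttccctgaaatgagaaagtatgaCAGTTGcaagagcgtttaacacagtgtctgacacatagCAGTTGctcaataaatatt
The motif began 33 bases after the summit at Ltb and 5 bases after it at Tnfsf14. The Tnfsf4 window held 2 motifs, beginning 6 bases before and 32 bases after the summit.

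The share of TNF superfamily genes with a Myb peak was close to that of protein-coding genes in general. A summit lay in or within 10 kb of 19 of the 36 genes, or 52.8% (95% interval 35.5 to 69.6), and of 52.6% of all protein-coding genes. A summit lay within 3 kb of an own start site in 11 genes, or 30.6% (16.3 to 48.1), compared with 39.9% of all genes, which the interval includes. With the window narrowed to 1 kb and 500 bp there were 7 genes, or 19.4% (8.19 to 36), and 6 genes, or 16.7% (6.37 to 32.8), compared with 35.8% and 31.7% of all genes. With peaks restricted to −log10 q-values of 5 or more, 11 genes were left, again 30.6%, compared with 35.9% of all genes. Intervals on shares are exact binomial intervals and those on reads are exact Poisson intervals. They cover counting error only, and with 1 library per antibody no test between conditions was possible and the variation between mice is unknown.

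By role, 8 of the 14 ligand genes had a summit (57.1%, 28.9 to 82.3), as did 11 of the 22 receptor genes (50%, 28.2 to 71.8). Of the receptors with a death domain, 3 of 5 had a summit, and of those that bind TRAF proteins 6 of 13. Of the decoy or soluble receptors 1 of 3 had a summit, as did Tnfrsf26, which was put in no class. The intervals of ligands and receptors overlapped over most of their range. They take genes as independent, although Lta, Ltb and Tnf shared peaks, as did Tnfsf12 and Tnfsf13.

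The median height of the peaks themselves was slightly below that of all Myb peaks. Fold enrichment, computed by the authors as the Myb pileup plus 1 over the local IgG background plus 1, had a median of 4.18 (95% interval 3.30 to 5.06 from the order of the values) and ranged from 2.05 to 8.08. Over all peaks the median was 4.51, which that interval includes, with quartiles of 3.73 and 5.95. A median of 19 Myb reads stood over the summits (range 9 to 44), and of 18 over all peaks. The local background, given at the depth of the IgG library, had a median of 2.16 reads against 2.00 over all peaks and ranged from 1.52 to 6. Myb reads enter the fold enrichment after multiplication by 0.769, the factor that brings the Myb library to that depth.

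The list contained weak calls. The q-value was above 0.05 in 5 of the 27 peaks, or 18.5% (6.30 to 38.1), compared with 7.24% (6.93 to 7.56) of all peaks, which the wider interval includes. These 5 were the peaks at the start of Tnf, at the start of Tnfsf13, in an intron of Tnfrsf1a, upstream of Tnfsf4 and the weakest of 3 peaks in Tnfrsf21. At 7 peaks the summit counted for more than 1 gene, because neighboring members lie within 10 kb of each other. The nearest protein-coding start site was that of a member for 22 of the 27 peaks. Where the nearest start had to be that of the gene itself, 16 of the 36 members kept a summit, or 44.4% (27.9 to 61.9). The share of all genes by this rule was not computed.

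**Figure D1:**
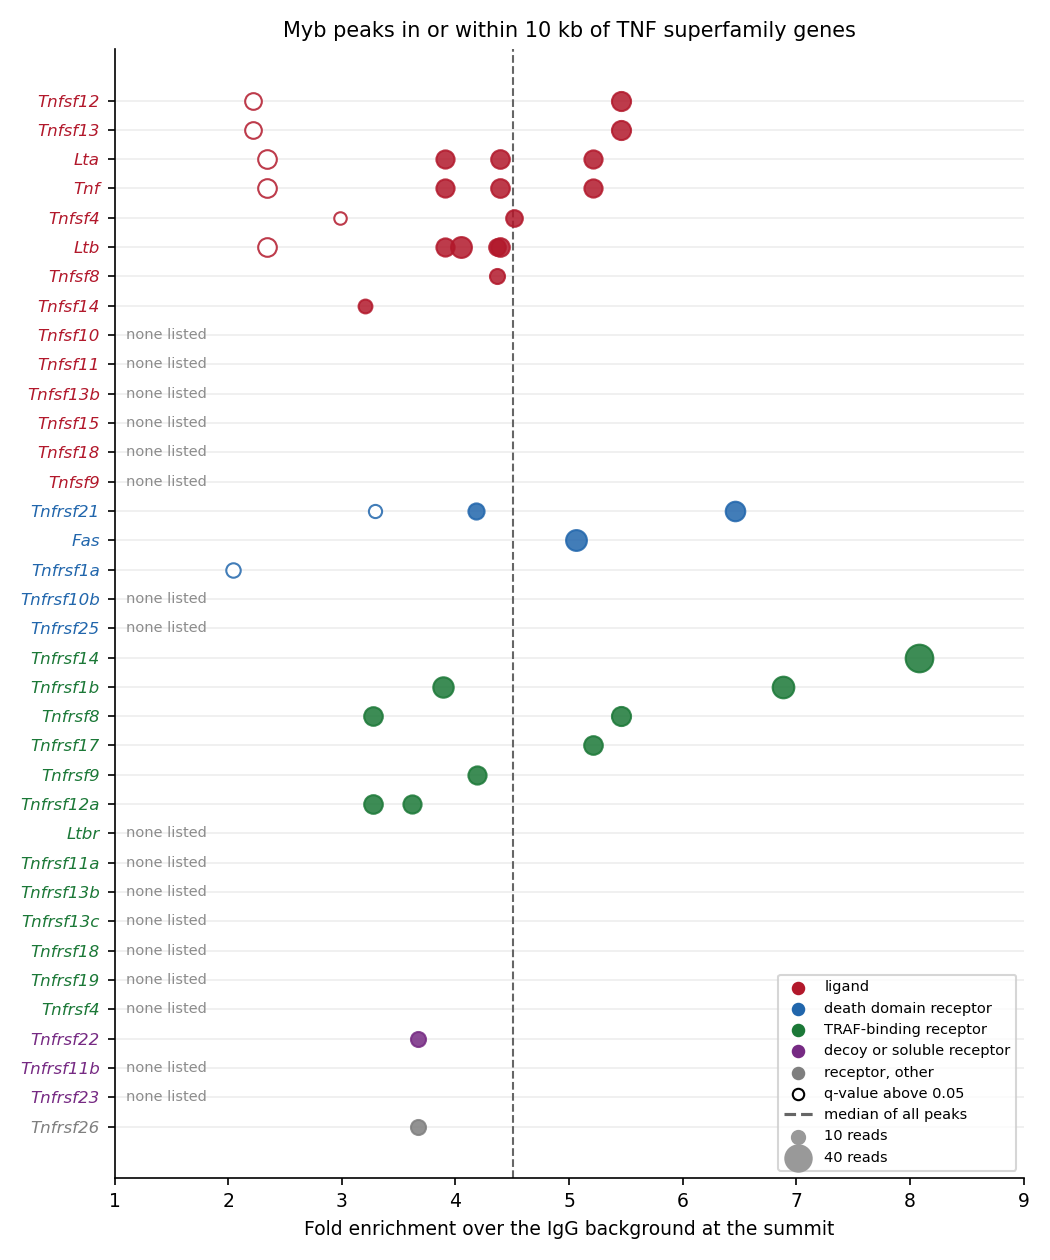
Each row is a gene, colored by role, and each point is a Myb peak in or within 10 kb of it, placed by its fold enrichment over IgG (linear axis) with its area in proportion to the Myb reads at the summit. Open points have a q-value above 0.05 and the dashed line is the median of all 25793 peaks (4.51). A peak near several members appears in each of their rows. The peak of Tnfrsf14 (8.08-fold) lies farthest to the right, and 17 genes have no peak in the list.

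Among the ligands, the densest occupancy was at the cluster of Ltb, Tnf and Lta on chromosome 17. Tnf encodes the founding cytokine of the family, and Lta and Ltb encode the subunits of lymphotoxin, which directs the formation of lymphoid organs. This cluster with its flanks of 10 kb spanned 30.9 kb and held 6 summits, or 19.4 per 100 kb. The density was 1.96 for all members, this cluster included, and 1.70 for all protein-coding genes. The density of the members without the cluster was not computed. At −log10 q-values of 5 or more the order of members and all genes turned, with 0.654 for members and 0.729 for all genes. In the cluster only the peak upstream of Lta (5.46) and a peak in an intron of Lst1 (5.08) reached that q-value. The strongest peak of the cluster lay 4794 bp upstream of Lta in intergenic sequence, with a fold enrichment of 5.21, a −log10 q-value of 5.46 and 19 reads (11.4 to 29.7). Lta held no summit inside the gene.

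Inside the cluster the fold enrichment was lower. In Ltb a summit inside the gene, 1060 bp from its start, had a fold enrichment of 4.39 with 20 reads. At 5071 bp upstream of Ltb the fold enrichment was 4.37 with 16 reads, and this summit was nearer to the start of the neighbor Lst1, a leukocyte gene, at 929 bp. Another summit 8232 bp upstream, in an intron of Lst1, reached 4.05 with 25 reads over a background of 4. It was the farthest from its member of all those counted.

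Tnf had 2 summits of its own. The summit in intron 3, 1161 bp from the start, had a fold enrichment of 3.90 and a −log10 q-value of 3.47, with 19 reads over a background of 3. The summit 106 bp from the start, in the 5′ UTR, had 20 reads over a background of 6, a fold enrichment of 2.34 and a −log10 q-value of 0.985. Thus the reads were alike at the intron and the start, and the IgG background was higher at the start. The background of 6 was the highest of the 27 peaks.

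The next ligand locus was that of Tnfsf12 and Tnfsf13 on chromosome 11. Tnfsf12 encodes TWEAK, the ligand of Tnfrsf12a, and Tnfsf13 encodes APRIL, a survival factor of plasma cells. A summit 0.233 kb beyond the end of Tnfsf13 and 3.64 kb beyond that of Tnfsf12 had a fold enrichment of 5.46, a −log10 q-value of 6.72 and 21 reads (13 to 32.1) (chr11:69682004-69682778). It lay in the 3′ UTR annotated for the read-through gene Tnfsfm13, and its nearest protein-coding start site was that of Senp3, at 529 bp. The start of Tnfsf13 itself had 16 reads over a background of 5 at 52 bp, a fold enrichment of 2.22 and a −log10 q-value of 0.519.

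The peaks at the remaining ligand genes were between 2.98- and 4.51-fold. Tnfsf4, the ligand of OX40 on T cells, had summits 480 bp inside the gene (4.51-fold, 16 reads) and 526 bp upstream (2.98-fold, 9 reads). Tnfsf8, the CD30 ligand, had a summit in an intron 13.9 kb from its start (4.36-fold, 13 reads). Tnfsf14, which encodes LIGHT, the ligand of Tnfrsf14 and Ltbr, had a summit 4194 bp upstream (3.21-fold, 11 reads, −log10 q-value 1.33). The stronger of the Tnfsf4 peaks and the Tnfsf8 peak were close to the median height of all peaks, and the weaker Tnfsf4 peak did not pass a q-value of 0.05.

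No summit was listed within 10 kb of the other 6 ligand genes. The distance to the nearest summit was 24.2 kb for Tnfsf9, the 4-1BB ligand, and 33.5 kb for Tnfsf10, which encodes the death ligand TRAIL. It was 70.7 kb for Tnfsf15, whose product TL1A binds Tnfrsf25, and 98.8 kb for Tnfsf18, the ligand of GITR. It was 130 kb for Tnfsf11, which encodes the osteoclast factor RANKL, and 604 kb for Tnfsf13b, which encodes the B cell survival factor BAFF. An absent call means only that no peak passed the authors' caller in this library.

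Among the receptors, the strongest peak was at Tnfrsf14. It encodes HVEM, the receptor of LIGHT and a partner of the inhibitory receptor BTLA. The summit lay 876 bp upstream of its start in a peak of 1889 bp (chr4:154927957-154929845), with 44 reads (32.0 to 59.1) over a background of 3.32. The fold enrichment was 8.08 and the −log10 q-value 18.3. It ranked 2472 of 25793 peaks, above 90.4% of the list, and it was the only summit within 10 kb of the gene. Among the 27 peaks its reads were the most numerous, and the next peak had 27 reads, with intervals that overlapped.

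The second strongest was at Tnfrsf1b, which encodes TNFR2, the TNF receptor without a death domain. A summit in intron 1, 5834 bp from the start (chr4:145240859-145241243), had 27 reads (17.8 to 39.3), a fold enrichment of 6.88 and a −log10 q-value of 10.2. A further summit 2.17 kb beyond the end of the gene had 24 reads over a background of 4 and a fold enrichment of 3.89. Tnfrsf8, the CD30 gene, lies next to Tnfrsf1b on chromosome 4. Its summits were in an intron 38.5 kb from the start (chr4:145276487-145276886), at 5.46-fold with 21 reads (13 to 32.1) and a −log10 q-value of 6.72, and in the 3′ UTR at 3.28-fold with 20 reads. Neither Tnfrsf1b nor Tnfrsf8 had a summit within 3 kb of a start site, so occupancy here was inside and behind the genes.

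Peaks at receptors with a death domain differed in strength. Tnfrsf21, which encodes death receptor 6, had 3 summits. The one 33 bp from its start, in the 5′ UTR (chr17:43016169-43017776), had 22 reads (13.8 to 33.3), a fold enrichment of 6.46 and a −log10 q-value of 7.86. Among the summits within 500 bp of an own start site it was the strongest. The others lay 1611 bp into the gene (3.30-fold, 10 reads, −log10 q-value 1.19) and 19.8 kb into it (4.18-fold, 15 reads), both in intron 1.

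Fas, the death receptor that removes activated lymphocytes, had a summit 2477 bp upstream (chr19:34287981-34288662). There were 25 reads (16.2 to 36.9) over a background of 3, a fold enrichment of 5.06 and a −log10 q-value of 6.99. Tnfrsf1a encodes TNFR1, the main TNF receptor with a death domain, and it had the weakest peak of the family. This summit, in intron 1 at 1937 bp from the start, had 12 reads (6.20 to 21.0) over a background of 4, a fold enrichment of 2.05 and a −log10 q-value of 0.0848. The fold enrichment of the TNF receptor genes thus differed, at 6.88 for Tnfrsf1b, the highest after Tnfrsf14, and 2.05 for Tnfrsf1a. The Tnfrsf1a peak was among the weak calls named above, so it is little evidence of occupancy. The intervals of the reads overlapped, at 17.8 to 39.3 for Tnfrsf1b and 6.20 to 21.0 for Tnfrsf1a. No other summit within 10 kb of Tnfrsf1a was listed.

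**Figure D2:**
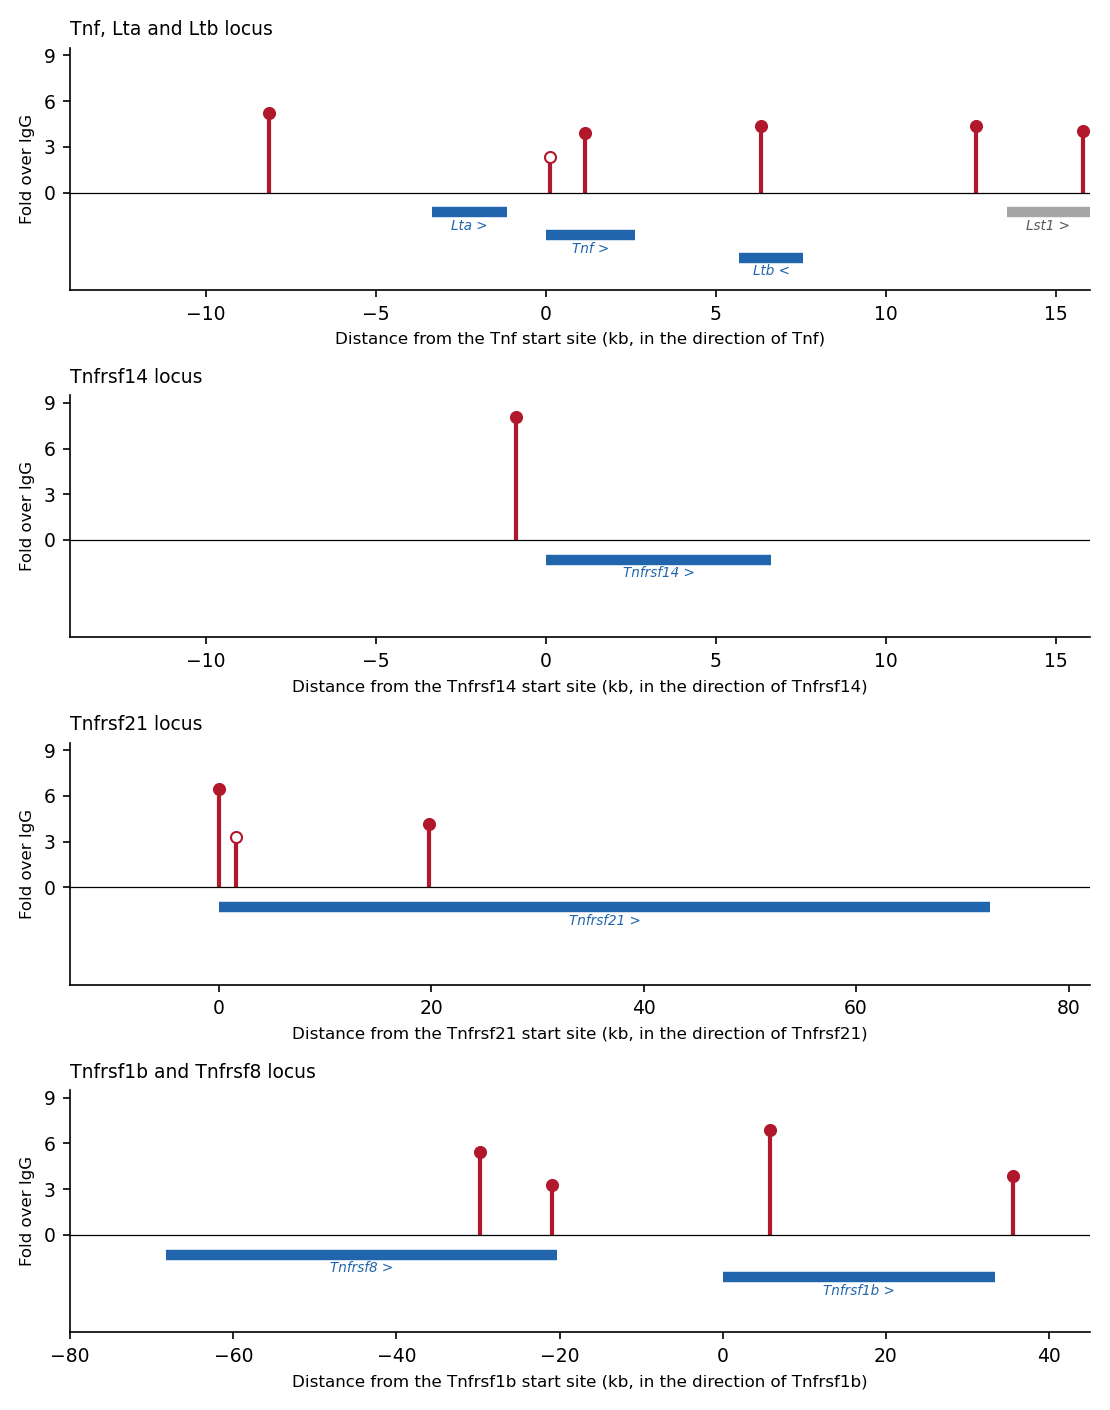
Myb peaks (red, height is the fold enrichment over IgG) and protein-coding genes (blue for TNF superfamily members, gray for others, with > or < for a gene that runs with or against the first) at 4 loci, by distance in kb from the start of Tnf, Tnfrsf14, Tnfrsf21 and Tnfrsf1b. Open points have a q-value above 0.05. The Tnf cluster has 6 peaks of 2.34- to 5.21-fold within 23.9 kb, Tnfrsf14 has a single peak of 8.08-fold upstream, and the Tnfrsf1b and Tnfrsf8 peaks lie away from the start sites.

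Of the remaining TRAF-binding receptors, 3 had summits. Tnfrsf17 encodes BCMA, the plasma cell receptor of APRIL and BAFF. Its summit, in intron 2 at 3900 bp from the start (chr16:11317247-11317862), had 20 reads (12.2 to 30.9), a fold enrichment of 5.21 and a −log10 q-value of 5.90. Tnfrsf9, the 4-1BB gene, had a summit in its 5′ UTR, 100 bp from an annotated start (4.19-fold, 19 reads). Tnfrsf12a encodes Fn14, the receptor of TWEAK, and had 20 reads over a background of 4 at 11 bp from its start (3.28-fold). A second summit counted for Tnfrsf12a was 80 bp from the start of the neighbor Hcfc1r1 (3.62-fold), and its 19 reads were 1 of 2 numbers that fit the deposited values.

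The promoter of Tnfrsf12a held more Myb motifs than any other member promoter that was searched. It had 3 within the 300 bases from 250 upstream to 50 downstream of the start, and the peak of 988 bp held 4, none closer than 155 bases to the summit. The promoter is shown up to the annotated start of transcribed sequence, from RefSeq (GRCm38.p6) on the minus strand, with the motifs in capitals.
Tnfrsf12a promoter, chr17:23677469-23677699 (-): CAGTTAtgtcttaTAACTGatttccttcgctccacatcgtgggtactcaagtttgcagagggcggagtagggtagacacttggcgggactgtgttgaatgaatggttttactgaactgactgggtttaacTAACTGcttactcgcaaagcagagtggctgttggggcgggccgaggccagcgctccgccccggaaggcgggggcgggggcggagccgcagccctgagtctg
RefSeq promoters matched 29 of the 36 genes, with 33 promoters. Of these 7 held a Myb motif, or 21.2%, compared with 28.3% of all 32851 promoters. The latter belong to 27025 gene symbols and were not limited to protein-coding genes, and no interval was computed. The other members with the motif were Tnfrsf13c, Tnfrsf17, Tnfrsf19, Tnfrsf9 and Tnfsf10, of which Tnfrsf13c, Tnfrsf19 and Tnfsf10 had no summit within 10 kb.

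The mouse cluster of Tnfrsf26, Tnfrsf22 and Tnfrsf23 on chromosome 7 spanned 98.2 kb with its flanks and had 1 summit. Tnfrsf22 and Tnfrsf23 encode decoy receptors of TRAIL. The summit, 2902 bp upstream of Tnfrsf26 and 3.18 kb beyond the end of Tnfrsf22, had 13 reads, a fold enrichment of 3.67 and a −log10 q-value of 2.51. Tnfrsf23 was 34.2 kb away from it.

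The other 10 receptor genes without a summit included the receptors of several ligands above. The nearest summit to Tnfrsf13b, which encodes TACI, was 11 kb away, just outside the window, with a fold enrichment of 5.44. It was 20.2 kb away for Ltbr, the lymphotoxin receptor, 20.5 kb for Tnfrsf13c, the BAFF receptor, 21.2 kb for Tnfrsf10b, the TRAIL receptor, and 33.7 kb for Tnfrsf25, the receptor of TL1A. Tnfrsf18 and Tnfrsf4, the T cell costimulators GITR and OX40, are neighbors and were 59.0 and 71.3 kb from a summit. Tnfrsf11a, which encodes RANK, was 117 kb away, Tnfrsf19 was 127 kb away, and Tnfrsf11b, whose product osteoprotegerin is the decoy of RANKL, was 636 kb away. RANKL, RANK and osteoprotegerin, the trio that governs osteoclast formation, were thus all over 100 kb from a summit. Of the 17 members without a summit, 8 had a summit within 50 kb and 5 had none within 100 kb.

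Gene length differed between ligands and receptors. Receptor genes with a summit had a median length of 21.1 kb and those without 16.9 kb, in the same order as all protein-coding genes with 23.6 and 11.5 kb. Ligand genes were in the opposite order, with 3.81 and 21.7 kb, and over all members the medians were 13.1 and 18 kb. The genes of the Tnf cluster, with 6 summits, were among the shortest at 1.88 to 2.63 kb. By position, 18 of the 27 summits were within 3 kb of an annotated start site, or 66.7% (46.0 to 83.5), compared with 57.6% of all summits. The sets are unlike, since member summits lie in or within 10 kb of a protein-coding gene by the rule. Of all 25793 summits 21942 did so, and the share among those was not computed. Of the 27 summits 16 were inside a member.

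The Myb motif was not more frequent at these summits than beside them. Its share of 11.1% at the summits given above compared with 13% of windows centered 500 bp to either side of the same summits. Over all peaks it was at 16.7% of summits and 10.5% of flanks. The shorter core AACNG, which every full motif contains, was at 33.3% (16.5 to 54.0) of member summits and 54.3% of all summits. The interval ended just below the share of all summits. In the flanks the core was at 48.1% for member peaks and 43.1% for all peaks. Somewhere in the peak 14 of the 27 held the full motif, against 58.6% of all peaks. The motifs of ETS factors (CGGAAG or AGGAAG) were at 9 of 27 summits, or 33.3% (16.5 to 54.0), with 14.8% in the flanks, compared with 20.4% of all summits. Those of RUNX factors (TGTGGT or TGCGGT) were at 5, or 18.5% (6.30 to 38.1), against 12.2% of all summits, and GATA motifs (AGATAA or TGATAA) were at 4, or 14.8% (4.19 to 33.7), against 13.8%. NF-κB and C/EBP motifs were each at 2 summits, or 7.41% (0.91 to 24.3), against 3.04% and 6.16% of all summits. AP-1 motifs were at 1, or 3.7% (0.0937 to 19.0), against 2.87%. For each of these factor families the interval included the share of all peaks. A motif match describes the letters at a site and does not show which protein was bound.

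Listed genes of the intracellular pathway behind the receptors more often had a summit than the ligands and receptors themselves. The list was chosen with earlier results of these data known, and the part of that choice in the counts was not tested. It held 25 adaptors, kinases, ubiquitin ligases and inhibitors that act downstream of TNF receptors. Summits lay within 10 kb of 23 genes, or 92.0% (74.0 to 99.0), against the 52.6% of all genes. The interval for the members was 35.5 to 69.6. Within 3 kb of an own start site there were 21, or 84.0% (63.9 to 95.5), against 39.9%. At −log10 q-values of 5 or more there were 16, or 64.0%, against 35.9%. The median length of these genes was 34.1 kb, compared with 17.4 kb over all protein-coding genes and 15.9 kb over the 36 members, and over all protein-coding genes those with a summit were longer, as given above. The part of length in this count was not tested. Summits were also denser, at 4.72 per 100 kb.

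The 5 highest genes on this list were Tnfaip3, Tab1, Cflar, Birc2 and Traf3. Tnfaip3, which encodes the NF-κB inhibitor A20, had 7 summits, and the strongest had 55 reads and a fold enrichment of 14.4. Tab1, an activator of the kinase TAK1, reached 11.4 with 48 reads. Cflar, which encodes the caspase-8 inhibitor c-FLIP, reached 10.4 with 32 reads, and Birc2, which encodes the ubiquitin ligase cIAP1, reached 9.13 with 58 reads. Traf3, an adaptor that restrains noncanonical NF-κB, reached 7.85 with 27 reads, at a summit whose nearest start was that of 4930595D18Rik. The first 4 exceeded the highest value among the 36 members, 8.08 at Tnfrsf14. The median over all 68 peaks of the list was 4.17, close to the 4.18 of the members. Only Traf6 and Tab3 had no summit. The strongest summits of Chuk, Rnf31 and Ikbkg, like that of Traf3, were nearest to the start of another gene (Erlin1, Emc9 and Fam3a).

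Other cytokine families were compared in the same way. Chemokines and their receptors had summits near 29 of 56 genes (51.8%, 38.0 to 65.3), and interleukin receptors near 23 of 41 (56.1%, 39.7 to 71.5). Within 3 kb of an own start site there were 23.2% (13 to 36.4) and 26.8% (14.2 to 42.9), compared with 39.9% of all protein-coding genes. The chemokine interval ended below that share, and the interleukin receptor interval included it. The interval of the TNF superfamily, 16.3 to 48.1, overlapped those of both families. That of the signaling list, 63.9 to 95.5, overlapped none of the 3. As given above, that list was chosen with earlier results of these data known and its genes are longer. The part of either in this gap was not tested. The density of summits was 3.38 per 100 kb at the chemokine genes and 1.25 at the interleukin receptors, compared with 1.96 at the members and 4.72 on the signaling list. The median fold enrichment was 4.86 and 4.69, compared with 4.18 and 4.17.

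**Figure D3:**
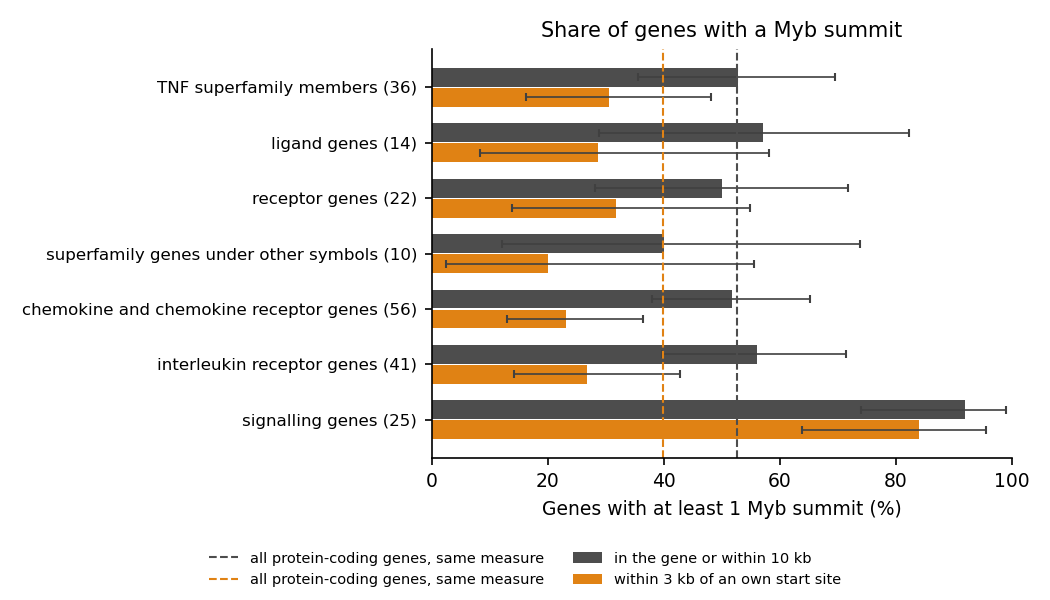
Percent of genes with at least 1 Myb summit in the gene or within 10 kb (dark bars) and within 3 kb of an own start site (orange bars), with the number of genes in parentheses and exact binomial 95% intervals as error bars. Dashed lines give the same shares over all 21951 protein-coding genes (52.6% and 39.9%). The dark ligand and receptor bars lie close to the dark line and the signaling genes lie above both lines, at 92.0% and 84.0%. The signaling genes were chosen with earlier results of these data known.

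The reads behind the calls set the limit on ranking the members. Outside the Tnfrsf14 peak, the summits with 9 to 27 reads had intervals as wide as 17.8 to 39.3 reads, so most neighbors in the order of height could not be told apart by their reads. The low fold enrichment at the starts of Tnf and Tnfsf13 and in Tnfrsf1a went with backgrounds of 6, 5 and 4, against a median of 2.16. In Tnfrsf1a the Myb reads were also few, at 12 against a median of 19. The other member peaks with a background of 4 had 20 to 25 reads and were 3.28- to 4.05-fold. In the Tnfrsf21 and Tnfsf4 peaks with a q-value above 0.05 the background was 1.64 and 1.66, and only 10 and 9 Myb reads were present.

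**Figure D4:**
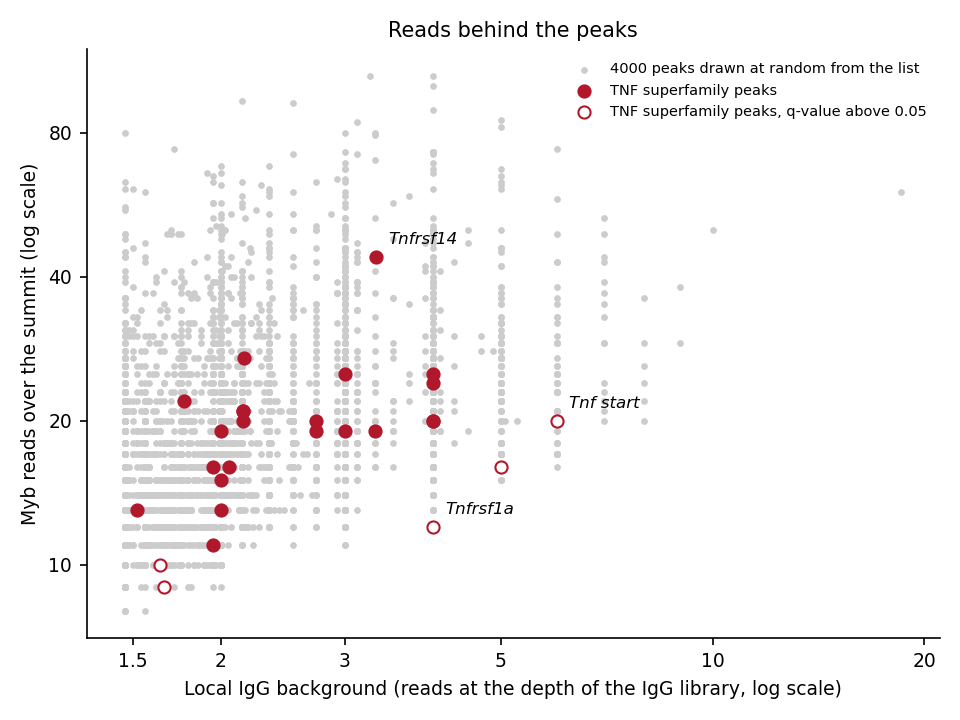
Myb reads over the summit against the local IgG background in reads at the depth of the IgG library, both on log axes. Gray points are a random sample of the peak list and red points the 27 peaks at TNF superfamily genes, open where the q-value was above 0.05. Tnfrsf14 stands highest with 44 reads, and the open points at the start of Tnf and in Tnfrsf1a lie at backgrounds of 6 and 4.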

How the data were processed

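Myb ChIP-Seq was performed on 1 μg of chromatin from WT Lin– cells with 1.5 μg of antibody, and the beads were tagged with a transposase. The authors used cutadapt (1.15) for trimming, BWA (0.7.13) for alignment to mm10 and Picard against duplicates. They called narrow peaks over IgG with MACS2 (2.1.1.20160309) and kept calls shared by pseudo-replicates, which are subsets of 1 library. The paper gives a q-value below 0.05 for the calls from pseudo-replicates, but 7.24% of the listed peaks had a q-value above 0.05. The 1 deposited file gives fold enrichment (a ratio), −log10 p-values and −log10 q-values. The deposited score, 10 times the −log10 p-value, was not used. No column gives read depth, so the reads at each summit were solved for from its p-value and fold enrichment, with whole numbers in 100% of rows at a tolerance of 0.002 in −log10 p and more than 1 possible number in 1.24%. On simulated data the scripts were tested for reads and motifs.

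Coordinates are 1-based. Summits were assigned to GENCODE vM21 genes with pandas (2.3.3), intervals came from scipy (1.17.1) and sequence from the GRCm38 reference with pysam (0.24.0). Peaks shared by neighboring members were counted for each. The 8 highest peaks and every member are named. The sequence and position of 1 of these peaks are not reported here. For other gene lists the 5 highest genes are named. The members and lists were chosen with earlier results of these data known. Alternatives covered the q-value, the gene window, the promoter window and the motif. The IgG library was used only within the peak calls.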

Additional observations from a re-analysis of the deposited data

How the results depend on the processing

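No paired analysis was possible because there was 1 library of each kind. At −log10 q-values of 5 or more, 11 members had a summit (5 ligand and 6 receptor genes), or 30.6%, against 35.9% of all genes. A summit within 3 kb of an own start site was left at 4 members (11.1%, 3.11 to 26.1, against 24.3% of all genes), and 9 peaks were left. Their median fold enrichment was 5.46 (6.23 over all such peaks) and the Myb motif was at 0.0% of their summits (19.6%). The density of 0.654 per 100 kb was below the 0.729 of all genes, opposite to the order of 1.96 and 1.70 without the threshold. With the gene body alone, 12 members (5 ligand and 7 receptor genes) and 16 peaks were left. The 12 were 33.3% of the members (18.6 to 51.0), against 35.4% of all genes with the same window. With 50 kb on each side there were 75 peaks, and the count of members for this window is given above. Windows of 1 kb and 500 bp around own start sites left 7 and 6 members (19.4% and 16.7%, against 35.8% and 31.7% of all genes). The gap was wider than the 30.6% against 39.9% within 3 kb. Within 1 kb of any start site were 44.4% of the peaks, against 41.6% of all peaks, which include peaks far from genes. The Myb motif was at 29.6% of summits within 100 bp (30.0% of all peaks), and the core AACNG was at 33.3% (54.3%). The other 42 recomputed values stayed within 1.5 times of the reported count or within the interval of the reported value. A q-value of at most 0.05 kept 18 of the 19 members and lost Tnfrsf1a. Depth limits all of this, since 9 to 44 reads stood behind each peak, and genes without a call may hold weaker occupancy than this library could show.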

Other observations

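Superfamily genes that carry other symbols were counted apart from the 36 members. Of 10 such genes, 4 had a summit within 10 kb, or 40% (95% interval 12.2 to 73.8), compared with 52.6% of all protein-coding genes, and 2 had one within 3 kb of an own start site, or 20%, compared with 39.9%. Relt, an orphan receptor of the family, had 4 summits, and the strongest had 33 reads, a fold enrichment of 9.58 and a −log10 q-value of 17.2, which is above the 8.08 of Tnfrsf14. It lay 9825 bp inside the gene. Fasl, the ligand of Fas, had a summit 6343 bp upstream of its start with 26 reads and a fold enrichment of 4.87, beside 25 reads and 5.06 upstream of Fas. Eda, the ectodermal ligand ectodysplasin, and Eda2r, its receptor, reached 5.09 with 15 reads and 4.15 with 12 reads. No summit was listed within 10 kb of Cd40, Cd40lg, Cd27, Cd70, Edar or Ngfr.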
